A study of Homo sapiens with 9 samples.

Results

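AJAP1 encodes adherens junctions-associated protein 1, a membrane protein first described at cell-cell junctions, and lies on the short arm of chromosome 1, in hg19 at chr1:4714669-4852594 on the plus strand (ENSG00000196581). The region described here is the stretch of chromatin around it, taken as 40 kb bins of Hi-C maps: a core of 42 bins (chr1:3840001-5520000, 1680 kb) inside a window of 95 bins (chr1:3000001-6800000), out of 77404 bins in the maps. Values in all libraries were present for 38 of the 42 core bins, for 86 of the 95 window bins and for all 5 bins that overlap AJAP1 (chr1:4680001-4880000). The region was chosen by its Hi-C contacts, with the difference between senescent and growing cells already in view, so its contact measures are a description, given library by library with no test. A test of single pairs of bins is printed only beside its count over all pairs. The rest of the core was split into 840 kb before the gene (21 bins, 17 with values) and 640 kb after it (16 bins), and the window outside the core into a left flank (840 kb) and a right flank (1280 kb).

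All 5 libraries came from IMR90, a line of normal human lung fibroblasts, stably infected with ER:HRAS(G12V), an activated HRAS oncogene fused to an oestrogen receptor domain. The protein stays inactive until 4-hydroxytamoxifen is added. The 3 growing libraries were from cells without the drug, and the 2 libraries of RAS-induced senescence (RIS) from cells given 100 nM of it for 6 days. Growing 3 also carried an MSCV vector, which no other label lists. Without that library the main differences below kept their direction. The depth was 154318992 to 180775315 contacts in the growing libraries, 109967509 in RIS 1 and 150689993 in RIS 2, so sparse values are least certain in RIS 1. The remaining 4 libraries of the series, capture Hi-C, list no bin of the core and were not used here.

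In Hi-C, chromatin is crosslinked, cut and religated, and each sequenced ligation is 1 contact between 2 places in the genome. Contacts fall off with distance, so a count is best read against the mean at the same distance, as observed/expected. Stretches that contact themselves more than their surroundings are topological domains. Their ends often hold CTCF, a DNA-binding protein at which the cohesin ring stalls while it extrudes a loop, and the insulation score, low where few contacts cross a point, marks them. On a coarser scale, gene-rich active chromatin (compartment A) and gene-poor silent chromatin (compartment B) each prefer their own kind. Oncogene-induced senescence, a stable arrest that follows an activated oncogene, is known for wide changes in chromatin folding.

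The core was gene-poor. AJAP1 was the only one of the 34 protein-coding genes of the window to overlap it, beside 7 named long non-coding RNA genes (LINC01346, LINC01345 and LINC02780 near its start, LINC01777 and LINC01646 closer to AJAP1, and LINC02781 and LINC02782). The left flank held 12 protein-coding genes, from PRDM16 to C1orf174, and the right flank 21, of which NPHP4 was the first, about 1 Mb past AJAP1. Median GC was 47.0% in the core and 52.4% in the AJAP1 bins, against 39.7% over the genome, and the AJAP1 bins held a median of 8 HindIII sites, the enzyme the maps were cut with, against 12. The left end of the core is a hole in the reference: hg19 has an unsequenced gap of 150 kb at chr1:3845269-3995268, and 3 of the 4 core bins without values lie in it. The gap also takes up most of the first core bin with values (chr1:3960001-4000000). That bin had the largest difference with the rest of the core (0.39) and is counted in the contact measures below.

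A 12-base core motif of CTCF, with 2 places in it at which any base is allowed and searched on both strands, was present in 6.94% of 70891 bins of the genome and in 1 of 38 core bins with sequence. It is a match of letters and not a measured binding site. The lone core match lay past the 3′ end of AJAP1 at chr1:4970685-4970696, and none fell in the AJAP1 bins or in the 840 kb before them. The left flank held 21 of the 24 matches of the window, but 18 of those were copies in a short tandem repeat in an intron of MEGF6 (chr1:3504450-3505111). The nearest match before the core lay in an intron of TP73 at chr1:3641151-3641162. The nearest one after the core lay in an intron of a lncRNA gene at chr1:5680665-5680676. Both are printed with the core match. The search fixed all letters of the motif but 2, which were GG in the core match and CC in the others. All 3 were on the minus strand, printed here 5′ to 3′ from the GRCh37 sequence with the motif in capitals and 9 bases on each side.
Before the core: acacggcagCCACCAGGGGGCgatagagct
In the core: tagatagctCCAGGAGGGGGCtggtcacca
After the core: ccactgtccCCACCAGGGGGCtaccatgtg

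The core contacted itself more than its distance alone gives in every library. The log2 of its mean observed/expected was 0.85, 0.87 and 0.79 in growing 1, 2 and 3 and 0.98 and 0.99 in RIS 1 and 2, over 703 pairs of bins. Both RIS values lay above all 3 growing values, and the means (0.84 ± 0.04, SD, n = 3, and 0.98 ± 0.01, SD, n = 2) differed by 0.15 on the log2 scale, a ratio of 1.11. The excess was smallest at short range. At 40 to 200 kb the core was below the chromosome's mean in growing cells (-0.25) and about level with it in RIS (-0.01), and at 1240 to 1640 kb it was far above in both (2.06 and 2.34). RIS lay above growing in all 5 distance classes, by 0.06 to 0.28. Over 5159 windows of the same layout slid along chromosome 1, which overlap each other, the core difference had a median of 0.00 and a 5th to 95th percentile range of -0.19 to 0.16.

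**Figure D1:**
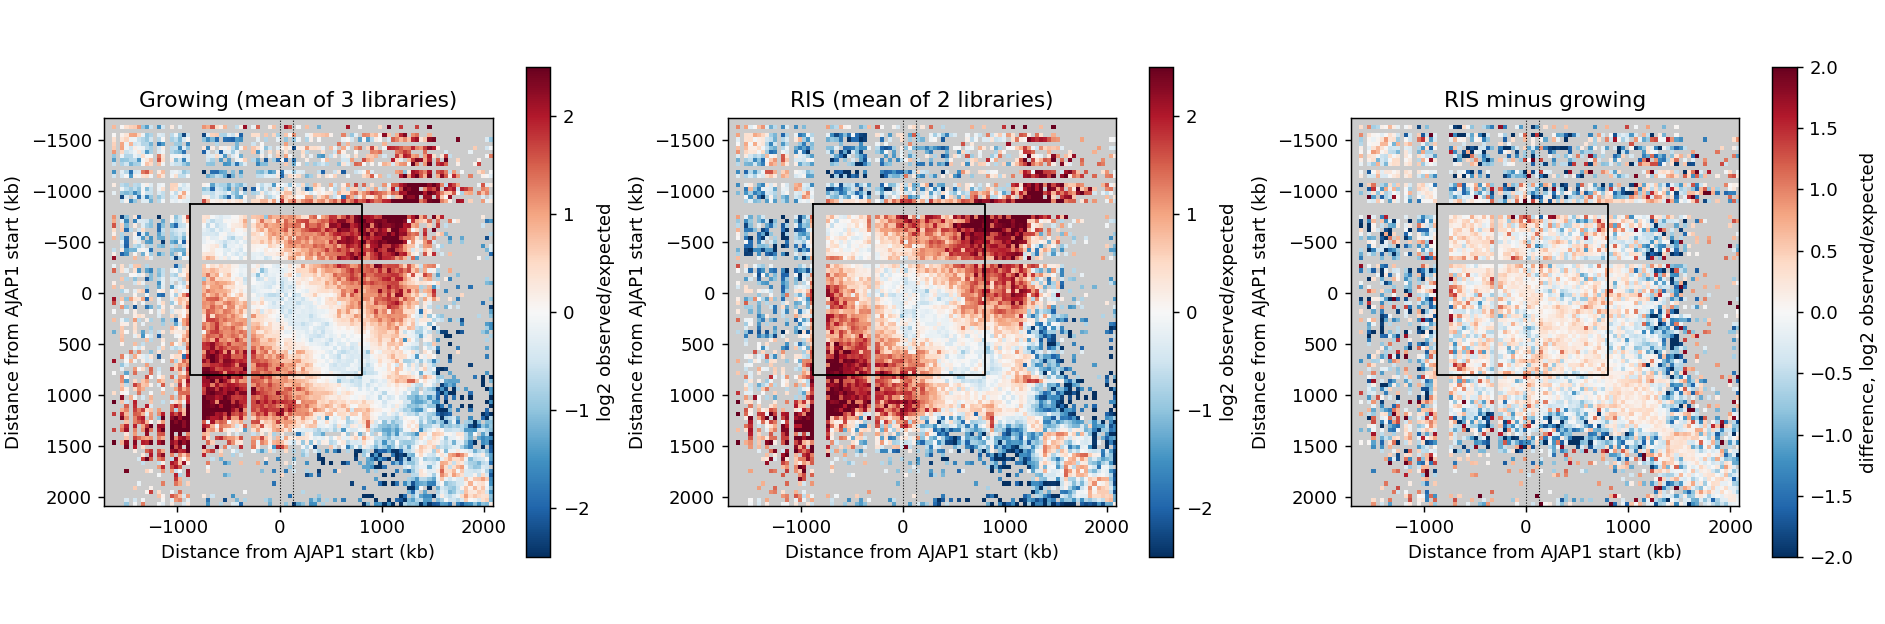
Contact maps of the window in 40 kb bins, as log2 observed/expected of the mean of the 3 growing libraries, of the mean of the 2 RIS libraries, and their difference; both axes give the distance from the AJAP1 start site in kb, the black square is the core, dotted lines mark the gene, and grey has no value. Red inside the square and beyond its right edge shows the excess of contacts at long range in both conditions, and the bands between the core and the left flank and between the core and the far right flank are blue in the difference.

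AJAP1 followed the core around it. With the rest of the core, its bins stood at 0.59, 0.55 and 0.56 in growing cells and at 0.73 and 0.76 in RIS, a difference of 0.18 with both RIS libraries above all growing ones (2155 to 2988 contacts per library). With the median of pairs in place of the mean the difference was 0.0622. In the windows along chromosome 1 the difference by the mean had a 95th percentile of 0.175. It was 0.186 in the 851 windows whose core, like this one, had a compartment score below -1 in growing cells. On the side before the gene the growing libraries were at 0.66, 0.60 and 0.62 and the RIS libraries at 0.80 and 0.91. On the side after it they were at 0.51, 0.49 and 0.49 against 0.65 and 0.59. The groups did not overlap on either side, and the difference was 0.23 before the gene and 0.13 after it. Over an equal 1000 kb on each side it was 0.16 and 0.16. Within the gene body the bins contacted each other less than the mean at their distance: -0.46, -0.31 and -0.29 in growing cells and -0.16 and -0.14 in RIS, the least negative values being those of the 2 RIS libraries, on 359 to 540 contacts. The difference was 0.20, or 0.44 without balancing and 0.12 by the median of pairs, and its 95th percentile in the windows was 0.195.

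The core met the left flank less often in RIS. This was the largest difference of the main measures: 0.07, -0.03 and 0.10 in growing 1, 2 and 3 against -0.69 and -0.72 in RIS 1 and 2. The groups were far apart, with 1282, 1367 and 1587 contacts in the growing libraries and 704 and 903 in RIS, and the means differed by -0.75, a ratio of 0.594. Among the windows along chromosome 1 the same difference had a 5th percentile of -0.46. RIS lay below growing at every distance, from -0.32 at 40 to 600 kb to -1.31 at 1840 to 2480 kb. Of the 38 core bins, 37 were lower with the left flank in RIS, and in 30 both RIS libraries lay below all growing ones (median -0.84). The same was so of 25.1% of such bins over all windows of chromosome 1.

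AJAP1 itself lost less toward the left flank than the core on either side of it did on average. The gene bins stood at 0.34, 0.07 and 0.25 in growing cells and at -0.10 and -0.42 in RIS, a difference of -0.48, where the core before the gene differed by -0.82 and the core after it by -0.79. These gene values rest on 116 to 152 contacts per growing library and on 85 and 96 in RIS, and the difference between the gene and its surroundings was not tested. Such small losses were not particular to the gene: the core bins of chr1:5280001-5480000 differed with the left flank by -0.59 to -0.23. The 5 gene bins were unlike each other. In the first, which holds the AJAP1 start site, contact with the left flank was -0.67, 0.07 and 0.17 in growing cells and -0.07 and 0.17 in RIS, with the groups overlapping. The last, which holds the 3′ end of the gene, stood at 0.26, 0.04 and 0.20 against -0.80 and -2.04, from 31, 24 and 31 contacts in growing cells and 10 and 8 in RIS. The groups overlapped in the first 2 gene bins and not in the other 3. With the rest of the core, all 5 gene bins were higher in both RIS libraries than in any growing one, by 0.11 to 0.23, as were 25.0% of such bins over the windows of chromosome 1.

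**Figure D2:**
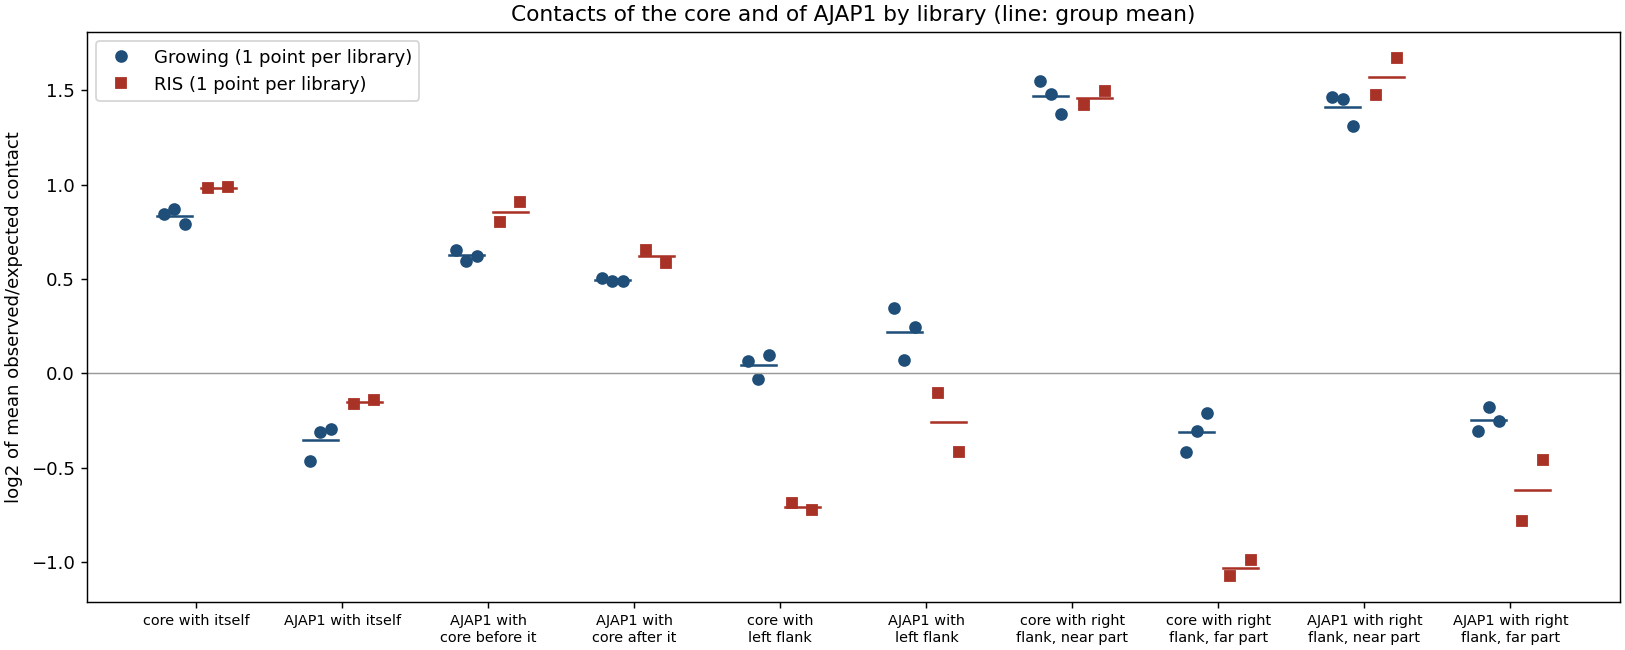
Contact of the core and of the AJAP1 bins with themselves and with the flanks, as log2 mean observed/expected on the vertical axis, 1 point per library and a line at the mean of each group (3 growing, 2 RIS). RIS points sit above the growing ones inside the core and below them toward the left flank and the far part of the right flank, and the groups overlap for the core with the near part of the right flank.

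On the right, the end of the core did not separate it from what follows. The right flank was divided at chr1:5920000, the edge of the bin in which NPHP4 ends, a point chosen after the maps were seen. With the near 400 kb the core stood at 1.55, 1.48 and 1.37 in growing cells and 1.42 and 1.50 in RIS, with overlapping groups. These pairs are farther apart on average than those within the core. At 840 to 1200 kb the core with itself had means of 1.56 in growing cells and 1.62 in RIS. With the far 880 kb it stood at -0.42, -0.30 and -0.21 in growing cells and -1.07 and -0.99 in RIS. There the groups were apart by -0.72 on the log2 scale, a ratio of 0.607, on 1141 to 1479 contacts per growing library and 537 and 691 in RIS. AJAP1 gave 1.47, 1.46 and 1.31 against 1.47 and 1.67 with the near part, and -0.31, -0.18 and -0.25 against -0.78 and -0.46 with the far part, so both RIS values lay above the growing ones on the near side, RIS 1 only narrowly, and below them on the far side. Taken as a whole, the right flank hid this: the core differed by -0.25 with it (-0.0975 without balancing, -0.89 by the median of pairs), and the AJAP1 groups overlapped. In the windows along chromosome 1 this difference had a 5th to 95th percentile range of -0.54 to 0.29, and the near and far parts were not set against other windows. Contacts that jump the core, from the left to the right flank, were also lower in RIS (1.32, 1.26 and 1.12 against 0.89 and 0.86).

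The contact profile of AJAP1 showed the same shape bin by bin. From the gene outward its observed/expected climbed to the far ends of the core and, on the right, went on climbing past its end. The bin at 5840001 to 5880000, 1145 kb past the start site, stood at 1.97, 1.74 and 1.83 in growing cells and 1.88 and 2.13 in RIS. Of the 17 bins with values before the gene inside the core, 14 were higher in RIS and 7 had both RIS libraries above all growing ones, as did 18.5% of such bins over the windows of chromosome 1. The largest of these differences was at the bin with LINC01346 and LINC01345 (chr1:4000001-4040000), which stood at 1.35, 0.89 and 1.09 in growing cells and 1.61 and 2.04 in RIS. After the gene, 9 of 16 core bins were higher and 7 lower, and the 3 bins at 5360001 to 5400000, 5440001 to 5480000 and 5480001 to 5520000 were among the 4 without overlap on the higher side (19.1% of such bins on chromosome 1). The bins chr1:5040001-5080000 and chr1:5120001-5160000 lay below all growing libraries (23.7%). In the left flank 12 of 16 bins were lower, 3 were higher and 1 had no contact with the gene in RIS 1, and 4 lay below all growing libraries (16.2%). Single bins of the flanks rest on few contacts: 10 of the 32 right-flank bins had none in at least 1 library and have no difference.

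**Figure D3:**
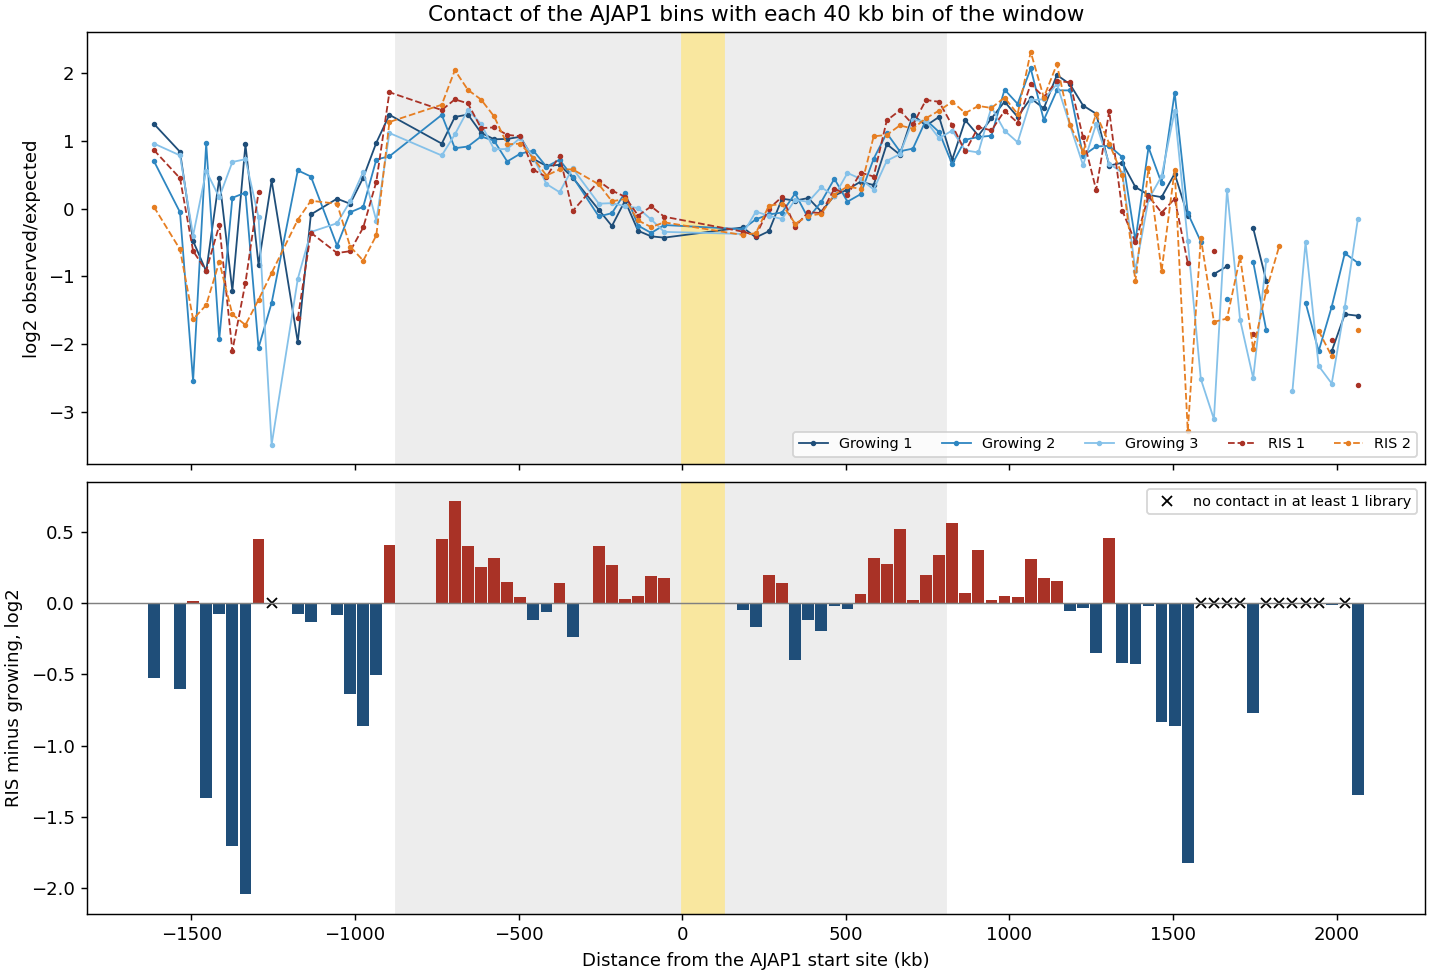
Contact of the AJAP1 bins with each 40 kb bin of the window against distance from the AJAP1 start site in kb; the upper panel gives log2 observed/expected in each library, the lower panel the RIS mean minus the growing mean, grey marks the core, yellow the gene, and crosses mark bins with no contact in at least 1 library. Most bars before the gene inside the core point up, 14 of 17, and those in the left flank mostly point down, 12 of 16.

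The neighbouring genes were read by their contacts with the core. On the left, 11 of 12 protein-coding genes were lower in RIS, 9 of them with both RIS libraries below every growing one, against 26.8% of single bins at such places in the windows of chromosome 1. ARHGEF16 had the largest difference: 0.04, 0.00 and -0.03 in growing cells against -1.16 and -1.57 in RIS, from 57 to 70 contacts against 20 and 24. PRDM16, a transcription regulator of brown fat and blood stem cells, stood at 0.22, -0.11 and 0.27 against -1.10 and -0.98. TP73, of the p53 family, was at -0.26, -0.19 and -0.07 against -0.89 and -0.97. The order changed close to the core. DFFB, the nuclease of apoptosis, overlapped between groups (0.73, 0.57 and 0.57 against 0.61 and 0.53). C1orf174, the last protein-coding gene before the gap, was the 1 that was higher, at 0.98, 0.88 and 1.04 against 1.14 and 1.11.

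To the right, 19 of 21 protein-coding genes were lower with the core in RIS, 15 of them without overlap, against 27.9% of single bins, and several of the 21 share bins. The other 2, NOL9 and TAS1R1, had no contact with it in at least 1 RIS library. Some of the 15 rest on few contacts: ZBTB48 and KLHL21, in 1 shared bin, had 2 in each RIS library, and PLEKHG5 had 2 and 4. NPHP4, a gene of the primary cilium, differed least (0.76, 0.68 and 0.81 against 0.47 and 0.45). KCNAB2, a subunit of potassium channels, was at 0.41, 0.39 and 0.54 against -0.36 and -0.30. CHD5, a chromatin remodeller, stood at 0.23, 0.52 and 0.30 against -0.80 and -0.69, with 183 to 237 contacts in growing cells and 68 and 100 in RIS. With AJAP1 alone CHD5 was at 0.22, 0.88 and 0.69 against -0.18 and -0.50, on 18 to 26 contacts against 11 and 9. The neighbours were unlike each other in this. With AJAP1, 5 of 12 genes on the left lay below all growing libraries, against 16.2% of single bins. On the right CHD5 lay below them too. Some others there rest on few contacts in RIS, as RPL22 (4 and 1) and HES2 (1 and 2). They are not counted here, since no share over other windows was taken. On that side 9 of 21 genes had no contact with AJAP1 in at least 1 library. TP73 (-0.14), NPHP4 (-0.04) and GPR153 (0.81, on 2 to 4 contacts) overlapped. Genes of 1 bin share their value with any other gene of that bin, as SMIM1 and LRRC47 did, and so are not separate measurements.

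Of the lncRNA genes of the core, contact with AJAP1 was higher in both RIS libraries for LINC01346 and LINC01345 (1 shared bin, difference 0.71), LINC02780 (0.56), LINC01777 (0.34) and LINC01646 (0.18), which lie before the gene. It was lower in both for LINC02781 (-0.12) and LINC02782 (-0.19), which lie after it. On chromosome 1, 18.5% of single bins at such places before the gene were higher without overlap and 23.7% of those after it lower, and these lncRNA bins are among those already counted in the profile. The gap between the groups was narrow for LINC01646, LINC02781 and LINC02782. It was wider for LINC01777, which stood at -0.13, -0.09 and 0.08 in growing cells and at 0.34 and 0.24 in RIS.

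Insulation at the left end was low in all libraries and lower in RIS. At chr1:3840000 the score, the log2 of the mean contact across the point over 520 kb on either side relative to chromosome 1, was -0.86, -0.73 and -0.77 in growing cells and -1.23 and -1.13 in RIS. Both RIS libraries lay below all growing ones, by -0.39 in the mean. Of all positions on chromosome 1, 90% differed by between -0.26 and 0.19. Of the 188 positions at or below -1 in growing cells, a class lower than the left end, 90% differed by between -0.44 and 0.28. With a window of 1000 kb the difference at the left end was -0.65. The minimum of this dip was at that position in 4 libraries and 1 bin before it in RIS 2, beside the assembly gap, whose missing bins put the bins on either side farther apart.

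The right end of the core was only a shallow dip. Its score was 0.03, 0.06 and 0.12 in growing cells and -0.07 and -0.01 in RIS, near the chromosome's mean, with a difference of -0.11, or -0.0069 with a window of 280 kb. A local minimum there with a prominence of 0.1 or more was found in 3 of 5 libraries (growing 3, RIS 1 and RIS 2), at a prominence of 0.16 to 0.25. At 6.08 Mb, in an intron of KCNAB2, all 5 libraries had a minimum of 0.70 to 1.03 in prominence, with scores of -1.004, -0.92 and -0.93 in growing cells and -1.16 and -1.31 in RIS. By these contacts the stretch of high contact that holds AJAP1 ran past the set core into the near part of the right flank, and the right end of the core is a division inside it. Both RIS libraries also had a faint minimum at 4.84 Mb, in AJAP1 near its 3′ end (prominence 0.21 and 0.16), a dip that fell short of a prominence of 0.1 in the growing libraries, and the score there overlapped between groups (0.32, 0.38 and 0.34 against 0.32 and 0.39). Inside the core before the gene the score was lower in RIS next to the left end and higher from 4.08 Mb on: at 4.36 Mb it was 0.53, 0.53 and 0.56 against 0.75 and 0.76.

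**Figure D4:**
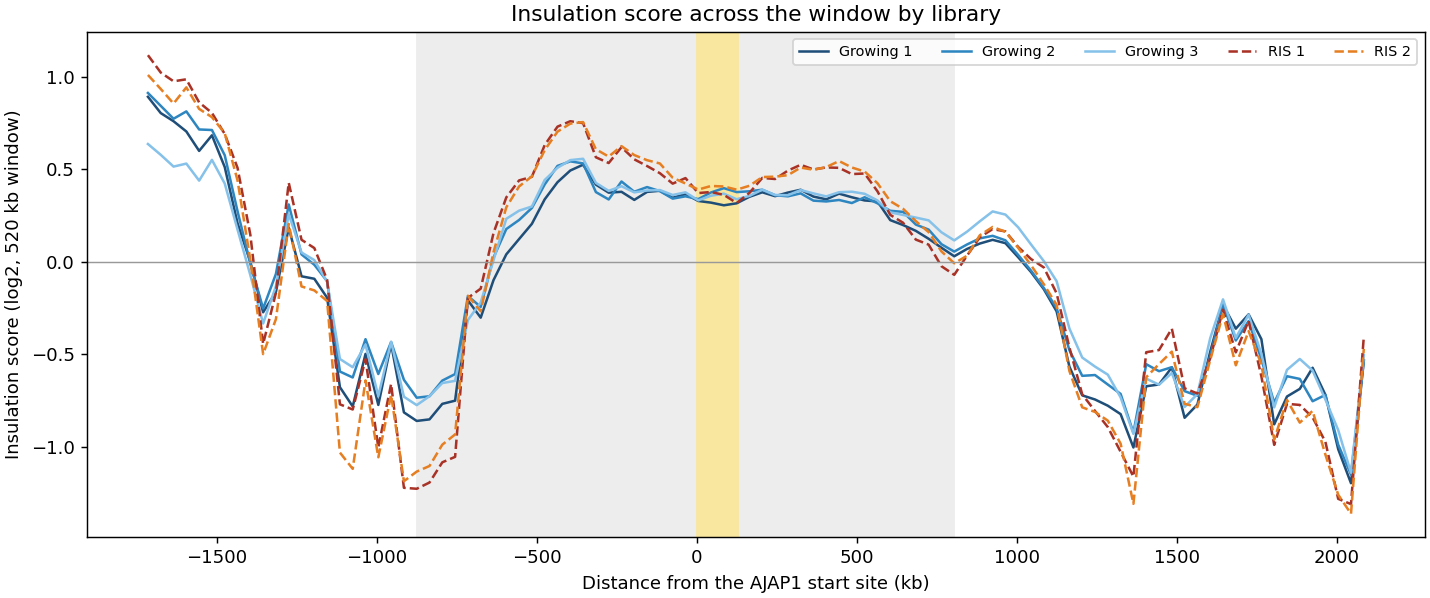
Insulation score (log2, window of 520 kb) across the window in each library against distance from the AJAP1 start site in kb, with the core in grey and the gene in yellow. The dip at the left end of the core is deeper in the 2 RIS libraries (-1.23 and -1.13) than in the 3 growing ones (-0.73 to -0.86), the right end of the core is shallow, and the dip at 6.08 Mb lies 1365 kb past the start site.

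The core belonged to compartment B in all libraries. Its compartment score, the first principal component of the chromosome 1 map in 120 kb bins in units of its SD and positive where genes are dense, was -1.37, -1.40 and -1.30 in growing cells and -0.98 and -0.98 in RIS. The RIS values were less negative, by 0.38, and none of the 13 core bins became positive. Both bins that hold AJAP1 moved like the rest (-1.12, -1.12 and -1.03 against -0.74 and -0.62 in the first, and differences of 0.41 and 0.35). In 200 kb bins the difference was 0.18. Over 275 overlapping runs of 14 bins, the length of the core, with a mean below -1 in growing cells, the median difference was -0.19, with a 5th to 95th percentile range of -0.38 to 0.13. Over the 509 single bins of chromosome 1 below -1 that range was -0.43 to 0.47, which holds the differences of both AJAP1 bins. The left flank moved the same way, from -0.10, -0.18 and -0.05 to 0.20 and 0.24. So did the start of the right flank (chr1:5520001-5880000), from -1.33, -1.30 and -1.16 to -0.74 and -0.75. Farther right, the difference was 0.46, 0.33 and 0.57 in the bins of chr1:5880001-6240000 and ran from -0.17 to 0.01 in those of chr1:6240001-6720000. The first component explained less of the map in RIS (65.4% and 67.6%) than in growing cells (76.6% to 77.9%), which moves with this score and was not separated from it.

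**Figure D5:**
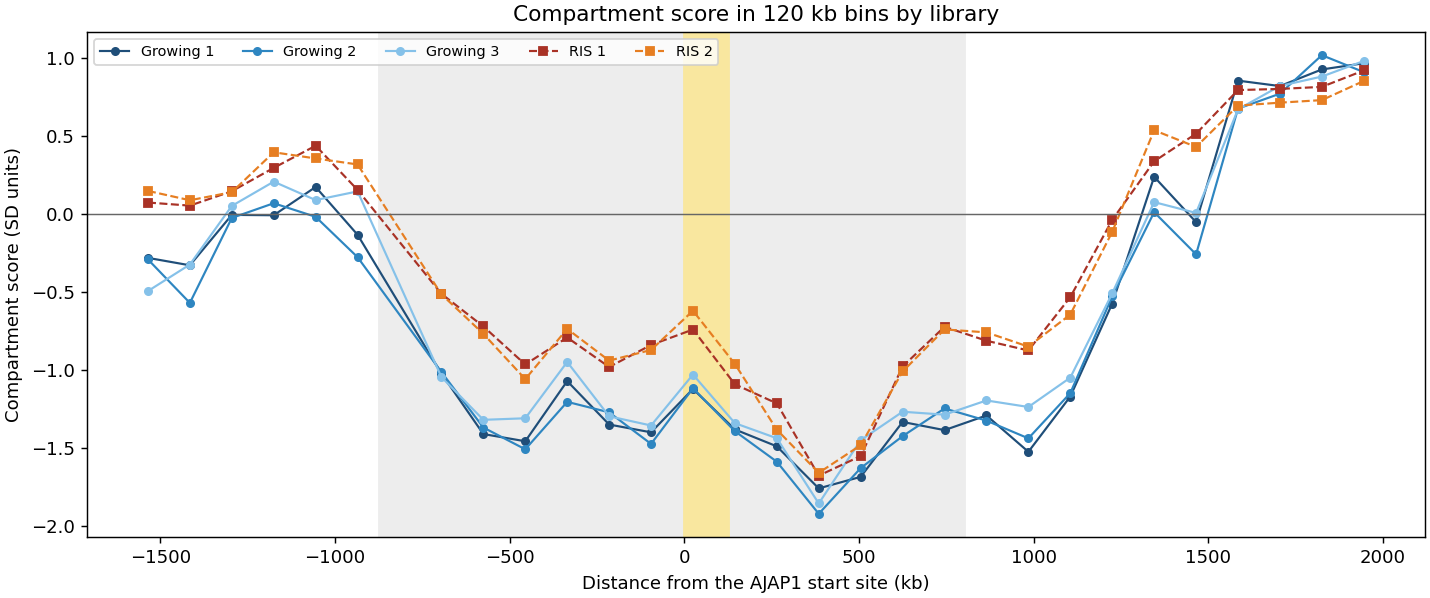
Compartment score in 120 kb bins, in SD units, across the window in each library against distance from the AJAP1 start site in kb, with the core in grey and the gene in yellow. All 5 libraries are negative across the core, and both RIS libraries (-0.98 on average) lie above the growing ones (-1.30 to -1.40).

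The preference of the core for compartments was then read from its contacts with the rest of chromosome 1. Beyond 2 Mb, the core with the 20% of bins of highest score stood at -2.52, -2.44 and -2.39 in growing cells and -2.61 and -2.51 in RIS, with the groups overlapping. With the 20% of lowest score it stood at 1.43, 1.46 and 1.26 against 1.19 and 1.24, where both RIS values were below the growing ones. Both sets of partner bins were picked by their score in the growing libraries alone. The part this choice has in the lower RIS values was not tested. The difference between the 2 preferences was -3.94, -3.90 and -3.65 against -3.81 and -3.75, with overlapping groups and a difference of 0.05. It was 0.23, toward A, with 10% of bins, and -0.0067 without growing 1.

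More of the core's contacts stayed close by in RIS. Contacts within 2 Mb made up 71.5%, 70.5% and 71.9% of its balanced total in growing cells and 75.2% and 76.2% in RIS, and for AJAP1 72.9%, 71.5% and 73.1% against 77.9% and 78.8%. The groups were apart for both, while chromosome 1 as a whole overlapped (71.9%, 71.2% and 71.1% against 69.7% and 72.3%). The share at 2 to 20 Mb was lower by 4.11 percentage points for the core and 4.04 for AJAP1, and by 1.83 for the chromosome. Contacts of the core with other chromosomes were higher in RIS (6.83%, 6.65% and 6.13% against 7.53% and 8.41%), as they were for chromosome 1 (7.36% and 9.47% in the mean), while those of AJAP1 overlapped.

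The coverage of the core before balancing moved with the groups too. The median core bin had 1848, 1865 and 2039 contacts in growing cells and 1418 and 2023 in RIS, which relative to the median bin of chromosome 1 is -0.94, -1.10 and -1.01 against -0.88 and -0.79 on the log2 scale. Balancing sets every bin to the same total, so a rise in coverage is divided out: on unbalanced contacts the core difference was 0.27 in place of 0.15, that of AJAP1 with the rest of the core 0.34 in place of 0.18, and that of the core with the left flank -0.57 in place of -0.75. The part that coverage has in these differences was not tested.

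In a test of every pair of bins up to 2 Mb apart, limma on log2 balanced values with Benjamini-Hochberg adjustment called 0 of the 703 pairs within the core and 0 of 175 between AJAP1 and the core, against 0.0401% of all 1955844 pairs (0.00731% called higher in RIS and 0.0328% lower). At an unadjusted p under 0.05 there were 66 core pairs, 53 higher and 13 lower in RIS, 9.39% against 10.2% of all pairs (93643 upward, 106147 downward). In the whole window 4 pairs were called, all lower: 1 of the core with the left flank, 1 of the core with the right flank, 1 within the right flank and 1 between the flanks. All 4 had no contact in either RIS library. The pair with most contacts, chr1:5520001-5560000 with chr1:6080001-6120000 across the KCNAB2 dip, had 5, 6 and 5 contacts in growing cells. The same pairs tested by voom on recovered whole contacts gave 36 core pairs, all higher in RIS, of which 20 were between adjacent bins and 5 involved AJAP1, where 1.18% of all pairs were called and 0.803% called higher. In the whole window voom called 74 pairs, all higher, 37 of them in the flanks and 1 of the core with the left flank. That test keeps the coverage difference given above. The contrast is the one that picked out the region, so nothing is read from these counts, and p-values over 3 and 2 libraries cover only the spread between these libraries.

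Genes elsewhere were ranked by how closely the difference profile of their own bins, over 20 bins on each side and oriented by transcription, tracked that of AJAP1. Over 4239 protein-coding genes of at least 80 kb, Pearson's r had a median of 0.00, a 95th percentile of 0.38 and a maximum of 0.66 (37 offsets). The 5 highest were HS6ST2 on chromosome X (0.66), MARK1 on chromosome 1 (0.64), HBE1 on chromosome 11 (0.62), CALCR on chromosome 7 (0.60) and MEIS2 on chromosome 15 (0.60). The offsets of a gene share bins and libraries and are not independent. The match was in shape, and the levels differed: AJAP1 averaged 0.18 before and 0.10 after the gene, HBE1 was nearest at 0.28 and 0.13, and MEIS2 stood at -0.09 and -0.17.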

How the data were processed

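Hi-C was measured in 5 libraries of IMR90 fibroblasts. Per the study's methods, the authors cut chromatin with HindIII and ligated it in the nucleus. HiC-Pro placed the reads on hg19, artefacts and duplicate reads were dropped, and contacts were counted in bins. The deposited matrices hold the ICE-balanced signal of each pair of 40 kb bins, scaled to a total of 200000000 per library with both orientations listed. The growing 1, growing 2 and RIS 1 libraries had few duplicates by the study's read statistics, and growing 3 and RIS 2 many. Chromosome lengths matched GRCh37 for 23 of 23 chromosomes, and genes came from the GENCODE annotation lifted to it.

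Dividing each value by 1 factor per bin, found from pairs on different chromosomes, gave whole contacts: 100% of values of up to 20 contacts lay within 0.05 of a whole number. Bins with values in all 5 libraries were used. The expected value was the mean at each distance on chromosome 1, per library. Pairs of bins were tested with limma 3.58.1 (R 4.3.3) on log2(scaled value + 0.5), after loess on abundance (span 0.3), for 1955844 pairs with a mean of at least 5, at a Benjamini-Hochberg level of 5%. limma on the log2 scale replaces the count test of the study's methods, since the deposited values are not counts. Measures and tests were tested on simulated data (Python 3.11.15). The study calls its replicates biological, and no label says whether they are separate cultures.

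The gene, window, segments and gene lists were chosen with earlier results of these data known. Named genes are AJAP1, the protein-coding genes of the window, and the 5 of at least 80 kb whose profile was most like that of AJAP1. Alternatives covered the expected value, balancing, summary, ends of the core, window and bin sizes, the test, and each library left out.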

Additional observations from a re-analysis of the deposited data

How the results depend on the processing

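Of 97 alternatives to the values without a test, 95 kept the direction of the difference between RIS and growing, 66 stayed within 1 SD of the replicates, 29 moved further and 2 changed sign. With the expected value taken over all autosomes the differences were 0.19 for core contacts, 0.22 for AJAP1 with the rest of the core, -0.68 for the core with the left flank and -0.18 with the right. Without balancing they were 0.27, 0.34, -0.57 and -0.0975, and 0.44 for AJAP1 with itself. The median of pairs in place of the mean gave 0.0622 for AJAP1 with the rest of the core, 0.12 for AJAP1 with itself and -0.89 for the right flank, and no value for the left flank, whose median pair had no contact. Without the first 280 kb of the core, an alternative chosen after seeing the data, core contacts differed by 0.11, AJAP1 with the rest by 0.11 and the right flank by -0.30.

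Insulation at the left end differed by -0.65 with a window of 1000 kb and by -0.55 (chosen after seeing the data) on observed/expected values, and at the right end by -0.0069 with 280 kb and by -0.20 on observed/expected values. The compartment difference was 0.18 in 200 kb bins and 0.52 on the short arm alone. The preference for A over B bins differed by 0.23 with 10% of bins. Among libraries with many duplicates it reversed, to -0.11, while core contacts gave 0.20, the left flank -0.82, the right flank -0.19 and the compartment 0.32. Among those with few duplicates the right flank gave -0.30. Leaving out 1 library gave -0.29 to -0.21 for the right flank and -0.0067 (without growing 1) to 0.14 for the A and B preference, so the sign of the latter rests on growing 1.

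limma called 0 core pairs in every alternative run, but with the replicate block, a pseudocount of 2, a minimum of 1, libraries with few duplicates or any library left out it called 0 of all pairs, so those zeros say nothing of the core. With voom there were 36, and 38 with the replicate block. Without growing 1, 2 or 3 voom called 14, 15 and 32, and without RIS 1 or RIS 2 it called 2, the lone RIS library then being taken to vary like the growing ones. Without loess the median of all pairs shifted by -0.12 on the log2 scale. Libraries with the same replicate number shared no visible deviation over single pairs of bins (correlation 0.0031 and -0.0011). Such sparse values cannot tell whether the libraries were prepared in pairs. Sparse pairs are limited by depth: single bins of AJAP1 with the flanks often had fewer than 10 contacts per library.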
